A study of Mus musculus with 10 samples.

Results

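Hippocampus was compared with prefrontal cortex in young adult mice. The comparison used 8 of the 10 RNA sequencing libraries of the series, 4 of each region, chosen by their tissue label, and the other 2 libraries were hypothalamus of males. All animals were CF1, an outbred stock, at postnatal day 56. Each region had 1 library for each combination of sex and perinatal diet. Diets were normal protein (NP) and low protein (LP), given to both parents at mating and continued in the dam until the litter was weaned. All offspring were weaned at postnatal day 21 and received NP for the following 5 weeks, so every library shared NP feeding after weaning. The F0 parents of both groups had also been moved from chow to NP for the 5 days before mating, and the labels name no genetic change in any group. The labels do not state whether a library was made from 1 animal or a pool. Nor do they state whether the hippocampus and prefrontal cortex of the same sex and diet came from the same animals, so p-values measure only the spread between these libraries.

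The hippocampus is an older cortical structure with a single main layer of neurons in each of its fields. Granule cells of the dentate gyrus project to pyramidal cells of CA3, which project to CA1, and the circuit is known for memory formation and for the feedback of stress hormones. The prefrontal cortex is layered neocortex: upper layers hold neurons that project within the cortex, and deep layers hold neurons that project to thalamus, striatum and brain stem. Both regions hold neurons, glia and vessels, and bulk tissue of either is a mixture of them.

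Total counts ranged from 10256882 to 13588314 in 7 of the libraries, and a count of 0 there allowed up to 0.221 to 0.292 CPM (counts scaled to the normalized library size), counting error only. The female NP hippocampus library held 7871010 counts and was incomplete: from the gene after Park7 on chromosome 4 up to chromosome 9, and on both sex chromosomes and the mitochondrial genome, no gene with an annotated position held a count. Values of 19598 genes were therefore treated as missing, and those genes have 3 hippocampal libraries. They include Park7 itself (503 counts) and 419 identifiers without a position, of which 96 held 3170 counts in that library. The male NP hippocampus library stood apart in pituitary hormone RNA, with 5319 counts of growth hormone (Gh) and 1223 of prolactin (Prl), against at most 58 and 46 in the other 7 libraries. The female NP hippocampus library was highest in genes of thalamus (summed 266 CPM over 10 list members, against 139 to 182 in the other hippocampal libraries). Without the male NP hippocampus library 4339 genes were higher and 4203 lower in hippocampus, and without the female NP one 4673 and 4705, where all 8 gave 4794 and 4793. Values below are CPM on normalized library sizes, in the order male NP, male LP, female NP and female LP. Differences are log2 of hippocampus over prefrontal cortex, given with a standard error (SE). The SE was calculated back from the difference and the F statistic of its test, so it is approximate, above all where a region had few counts.

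The labels of the regions were checked on 4 markers. Prox1, the transcription factor that specifies dentate granule cells, was at 13.4, 8.58, 10.6 and 10.3 CPM in prefrontal cortex and at 103, 107, 119 and 112 CPM in hippocampus. Zbtb20, a repressor of hippocampal pyramidal neurons, was at 25.9, 21.2, 27.7 and 20.2 CPM against 237, 197, 198 and 211 CPM. Both were high in every hippocampal library, with log2 differences of 3.36 ± 0.09 and 3.15 ± 0.08. Cux2, a transcription factor of upper cortical layers, was at 179, 179, 189.7 and 211 CPM in prefrontal cortex and at 25.8, 30.5 and 29.3 CPM in the 3 hippocampal libraries that count it (-2.72 ± 0.06). Lamp5, a membrane protein of upper-layer neurons and of some interneurons, was at 237, 223, 218 and 212 CPM against 38.4, 38.4, 37.6 and 33.7 CPM (-2.59 ± 0.04). No marker overlapped between the regions, so all 8 libraries carried the markers of their labelled region.

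Of 16215 genes tested, 4794 (29.6%) were higher in hippocampus and 4793 (29.6%) lower, which is 59.1% of all tested genes in either direction (edgeR's quasi-likelihood test, adjusted p under 0.05). At least 2-fold differences were found for 920 genes higher (5.67%) and 836 lower (5.16%), and at least 4-fold ones for 222 and 203. Most calls were small: 5669 of the 9587 (59.1%) lay under 1.5-fold, and the median size of a called difference was 0.487 on the log2 scale. In 8136 called genes (84.9%) the values of the regions did not overlap, a share counted among called genes only. A call itself favours genes whose regions stand apart, so this share adds no separate support. The median log2 difference of all tested genes was -0.00931. With so many genes called, a count of list members is read below against 29.6% in each direction. Throughout, fewer cells of a type and less RNA per cell cannot be told apart.

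**Figure D1:**
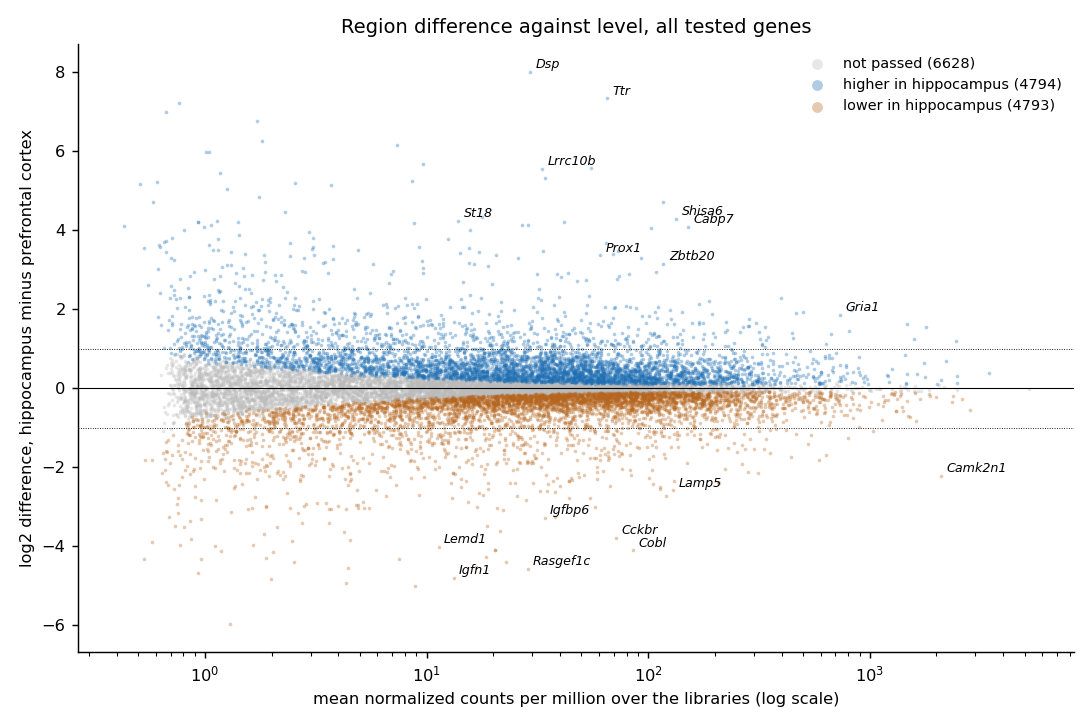
Each point is a tested gene, with its mean normalized CPM over the libraries (log axis) against its log2 difference, hippocampus minus prefrontal cortex; blue points passed as higher (4794), brown as lower (4793) and grey did not pass. Dotted lines mark 2-fold, and Dsp at 8.02 and Igfn1 at -4.80 are the outermost named genes.

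Among the genes named for their large differences on the hippocampal side were the dentate granule cell genes Dsp and Lct, the CA1 gene Fibcd1 and Ttr of the choroid plexus. Dsp encodes desmoplakin, a protein of cell junctions and a dentate granule cell marker. It was at 0, 0.37, 0.0919 and 0.398 CPM in prefrontal cortex, from 0, 5, 1 and 4 counts, and at 49.1, 56.7, 67.9 and 60.3 CPM in hippocampus (8.02 ± 0.20, adjusted p = 1.3e-12; ENSMUSG00000054889, chromosome 13, 38151294 to 38198577). Lct, the lactase gene and another granule cell marker, was at 1.35, 2.07, 1.84 and 1.19 CPM against 62.4, 64.9, 76.4 and 63.5 CPM (5.34 ± 0.12). Lrrc10b, a leucine-rich repeat gene, was at 1.04, 1.55, 1.38 and 1.49 CPM against 63.9, 54.1, 71 and 71.8 CPM (5.56 ± 0.11; chromosome 19, 10455371 to 10457473). In all 3 genes every hippocampal library was far above every cortical one, and the cortical levels rested on few counts. Regions that do not overlap were a condition for naming these genes.

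Shisa6, an auxiliary subunit of AMPA-type glutamate receptors, was at 12.1, 14, 11.9 and 14.1 CPM in prefrontal cortex and at 263, 248, 249 and 258 CPM in hippocampus (4.29 ± 0.06, 19.5-fold). Cabp7, a calcium-binding protein, was at 17.7, 16.8, 18.4 and 14.1 CPM against 287, 284, 284 and 284 CPM (4.08 ± 0.06). The hippocampal values of both genes lay close together across sexes and diets. Npy2r, the presynaptic Y2 receptor for neuropeptide Y, was at 3.58, 3.03, 2.57 and 3.08 CPM against 56.8, 54.8, 51.5 and 53.6 CPM (4.14 ± 0.09). The sodium-proton exchanger gene Slc9a2 was at 4.13 ± 0.10 on the log2 scale, and Fibcd1, a CA1 marker that binds acetylated sugars, at 4.07 ± 0.13. Olfml2b (4.21 ± 0.09), an olfactomedin-like secreted protein, and the transcription factor St18 (4.23 ± 0.17) were called as well. Il16, a cytokine precursor, had a difference of 4.33 ± 0.12 over 7 libraries, and its exons overlap those of Stard5, so its counts are uncertain.

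On the prefrontal side, the leading genes included Igfn1, Tnnc1 and Myl4, which are best known from muscle. Igfn1, an immunoglobulin-domain protein gene, was at 23.4, 21.3, 28.3 and 29.5 CPM in prefrontal cortex and at 0.887, 1.46, 0.502 and 0.697 CPM in hippocampus (-4.80 ± 0.18, 27.9-fold lower; ENSMUSG00000051985, chromosome 1, 135953578 to 136006342). Tnnc1, the slow troponin C gene, was at 26, 29.9, 34 and 38.2 CPM against 1.21, 1.53, 1 and 1.74 CPM (-4.53 ± 0.12; chromosome 14, 31208312 to 31211729). Myl4, a myosin light chain gene, was at 26.4, 37.7, 45.3 and 45.4 CPM against 2.34, 1.76, 2.51 and 2.26 CPM (-4.11 ± 0.14). All 3 genes were below 3 CPM in every hippocampal library. Rasgef1c, an exchange factor for Ras-like proteins, was at 52.6, 56, 54.7 and 56.3 CPM against 2.58, 2.61, 1.67 and 2.26 CPM (-4.58 ± 0.10; chromosome 11, 49901835 to 49980994). Cobl, an actin nucleator of growing neurites, was the most abundant of the leading lower genes, at 154, 156, 158 and 178 CPM against 7.98, 12.5, 9.45 and 7.14 CPM (-4.11 ± 0.10). Other leading genes on this side were Dkkl1, Lemd1, Cckbr, Sowahb, Adcyap1 and Igfbp6, with differences from -4.41 (Dkkl1) to -3.29 (Igfbp6).

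**Figure D2:**
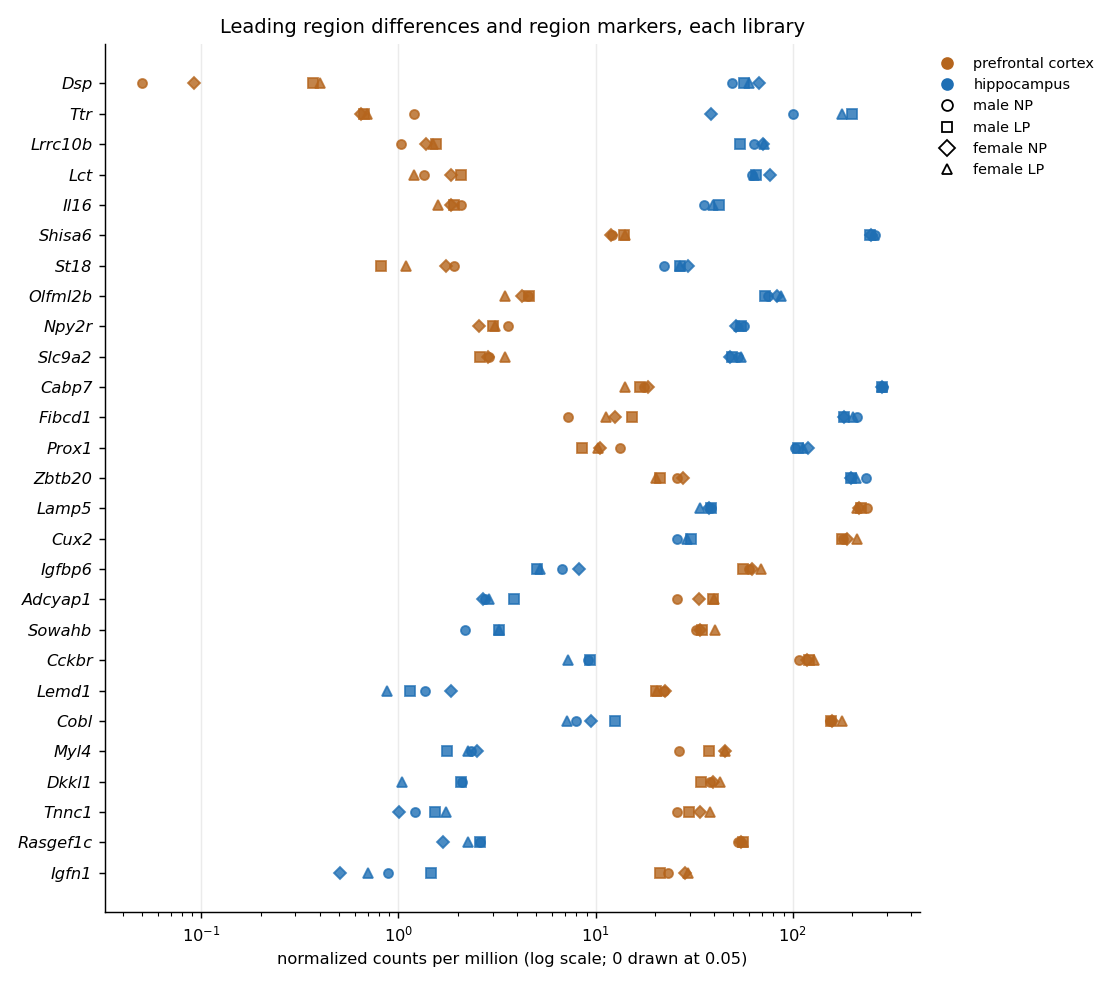
Normalized CPM (log axis, 0 drawn at 0.05) of leading genes and the 4 region markers, ordered by their log2 difference, with 1 symbol per library, brown for prefrontal cortex and blue for hippocampus. In every gene shown the libraries of the regions stand apart, which was a condition for choosing the leading genes. Dsp, Ttr and Lrrc10b are at the top and Igfn1, Rasgef1c and Tnnc1 at the bottom.

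The promoters of the leading genes are shown because these genes were low in the opposite region. Each is the 250 bases before the annotated start, 5′ to 3′ on the gene's strand, from RefSeq (GRCm38.p6), for the 3 largest differences in each direction with Ttr left out. Capitals mark matches, on either strand, to 5 motifs that are named with their shares after the sequences. The genes higher in hippocampus were Dsp (chr13:38151044-38151293, plus strand), Lrrc10b (chr19:10457448-10457697, minus strand) and Lct (chr1:128328319-128328568, minus strand).
Dsp: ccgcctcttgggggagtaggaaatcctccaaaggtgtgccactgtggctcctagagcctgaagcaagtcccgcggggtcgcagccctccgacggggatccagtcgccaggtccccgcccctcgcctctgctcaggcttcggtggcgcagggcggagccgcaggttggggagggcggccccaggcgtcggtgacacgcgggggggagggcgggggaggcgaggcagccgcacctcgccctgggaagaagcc
Lrrc10b: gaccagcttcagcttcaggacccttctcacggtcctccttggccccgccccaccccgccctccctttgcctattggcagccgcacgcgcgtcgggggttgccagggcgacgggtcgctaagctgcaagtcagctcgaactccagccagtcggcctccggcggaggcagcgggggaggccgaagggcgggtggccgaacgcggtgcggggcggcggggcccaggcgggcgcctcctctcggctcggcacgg
Lct: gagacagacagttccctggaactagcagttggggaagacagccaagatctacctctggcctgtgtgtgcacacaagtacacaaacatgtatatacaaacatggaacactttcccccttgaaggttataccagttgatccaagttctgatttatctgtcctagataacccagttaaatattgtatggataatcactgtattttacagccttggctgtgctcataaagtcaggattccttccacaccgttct
The genes lower in hippocampus were Igfn1 (chr1:136006343-136006592, minus strand), Rasgef1c (chr11:49901585-49901834, plus strand) and Tnnc1 (chr14:31208062-31208311, plus strand).
Igfn1: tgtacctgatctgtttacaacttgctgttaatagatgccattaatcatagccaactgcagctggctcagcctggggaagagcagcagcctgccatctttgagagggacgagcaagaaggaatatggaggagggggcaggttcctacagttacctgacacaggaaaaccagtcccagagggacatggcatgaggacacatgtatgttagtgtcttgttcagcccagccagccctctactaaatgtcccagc
Rasgef1c: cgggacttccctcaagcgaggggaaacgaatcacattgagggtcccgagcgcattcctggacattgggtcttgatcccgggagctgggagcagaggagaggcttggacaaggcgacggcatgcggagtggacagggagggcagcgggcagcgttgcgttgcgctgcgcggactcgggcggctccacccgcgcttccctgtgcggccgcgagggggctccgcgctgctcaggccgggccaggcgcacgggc
Tnnc1: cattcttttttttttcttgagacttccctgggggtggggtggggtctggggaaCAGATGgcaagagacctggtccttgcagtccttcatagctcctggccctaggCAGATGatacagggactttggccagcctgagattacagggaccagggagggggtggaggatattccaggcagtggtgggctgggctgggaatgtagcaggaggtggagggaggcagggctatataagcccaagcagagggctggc
In both directions CpG-rich and CpG-poor promoters stood side by side. The dinucleotide CG occurs 22 times in Dsp, 29 times in Lrrc10b and 27 times in Rasgef1c, but 1 time in Lct, 1 time in Igfn1 and 0 times in Tnnc1. The median was 6 over all 32817 RefSeq windows of this length, which are not limited to the genes tested here. Matches were found in Tnnc1 alone, with CAGATG at positions 54 and 106 counted from the first base shown. The E-box of the NeuroD family, CAGATG, is held by 14.5% of all 32817 windows. The T-box site AGGTGTGA is held by 1.12%, the cAMP response element TGACGTCA by 1.55%, the EGR site GCGTGGGCG by 0.536% and the TATA box TATAAA by 12.4%, and none of these motifs overlaps another in the windows shown.

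Genes that mark the hippocampal fields were higher in hippocampus as groups. Of 18 dentate granule cell genes 12 were higher, 4 lower and 2 did not pass, with 9 at least 2-fold higher (median log2 difference 1.01). Of 12 CA1 genes 8 were higher and 3 lower (median 1.22), and of 15 CA2 and CA3 genes 13 were higher and 2 lower (median 1.30). In the dentate list, Dock10, a regulator of dendritic spines, was at 13, 8.73, 9.37 and 9.05 CPM in prefrontal cortex against 66.7, 71.5, 72.8 and 72.6 CPM in hippocampus (2.81 ± 0.10). C1ql2, a secreted synapse organizer of mossy fibres, was at 1.67, 1.78, 1.84 and 1.39 CPM against 20.2, 23.5, 25.8 and 23.3 CPM (3.77 ± 0.13). The 4 members lower in hippocampus differed little: C1ql3 by -0.51, Calb1 by -0.31, Pdzd2 by -0.62 and Trpc6 by -0.23, and cortical neurons also express them. Trpc6 lay at the threshold (adjusted p = 0.048) and lost its call in every alternative but the one with other size factors.

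Among CA1 genes, Lefty1, a secreted inhibitor of Nodal signals, was at 0.159, 0.444, 0.643 and 0.497 CPM against 16.6, 16.3, 17.1 and 17 CPM (5.26 ± 0.19). Spink8, a protease inhibitor, was at 1.12, 1.11, 0.919 and 1.19 CPM against 21.9, 17.2 and 18.1 CPM (4.17 ± 0.16). Ndst4, an enzyme of heparan sulfate synthesis, had 1 cortical library apart from the rest, with 0.558, 7.4, 0.643 and 0.497 CPM against 32.4, 26.5, 27.1 and 29.3 CPM (3.54 ± 0.39). Of the 12 CA1 genes 7 were at least 2-fold higher and 1 was at least 2-fold lower. Members lower by less than 2-fold included Mpped1 (-0.67 ± 0.05) and Itpka (-0.22 ± 0.05).

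In the CA2 and CA3 list, Homer3, a scaffold that links metabotropic glutamate receptors to calcium stores, was at 4.46, 3.77, 4.23 and 4.28 CPM against 44.3, 41.3 and 41.8 CPM (3.37 ± 0.09), and its exons overlap those of Ddx49. Rgs14, a signalling regulator that marks CA2, was at 56, 68.5, 62 and 67.9 CPM against 160.2, 153, 158 and 166 CPM (1.33 ± 0.05). Amigo2, an adhesion protein of CA2 and CA3, differed by 1.58 ± 0.08, the calcium-dependent membrane protein gene Cpne4 by 1.63 ± 0.05 and the kainate receptor subunit gene Grik4 by 1.30 ± 0.06. Ptpn5, the striatal-enriched phosphatase gene (-0.84 ± 0.05), and Pcp4, a calmodulin-binding peptide gene that deep cortical layers also express (-1.43 ± 0.11), were the 2 members lower in hippocampus.

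Transcription factors of the medial pallium and of neuronal lineages split by region. Of 18 factors 11 were higher, 5 lower and 2 did not pass, with 7 at least 2-fold higher and 2 at least 2-fold lower (median 0.72). The lower ones included Tbr1, Emx1, Lhx2 and Nfix. Lhx9, a LIM homeobox factor, was at 2.07, 2.29, 2.94 and 2.39 CPM against 26.9, 24.9, 24.7 and 27 CPM (3.42 ± 0.12). Bcl11b, known for subcortical projection neurons and also present in granule cells, was at 55.9, 72, 58.9 and 69.4 CPM against 202, 187, 198 and 198 CPM (1.62 ± 0.07). The NeuroD family members Neurod6 (1.39 ± 0.06), Neurod1 (1.29 ± 0.10) and Neurod2 (0.97 ± 0.05) were all higher, as was Nfib (1.29 ± 0.04). Tbr1, the factor of deep-layer corticothalamic neurons, was at 170.0, 151, 168 and 158 CPM in prefrontal cortex against 49.5, 51.8, 48.8 and 43.7 CPM in hippocampus (-1.73 ± 0.05).

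By number of genes, members of the neocortical layer lists were more often lower in hippocampus, with exceptions in both lists. Of 16 upper-layer genes 12 were lower and 3 higher (median -0.77), and of 24 deep-layer genes 15 were lower and 8 higher (median -0.65). The summed level of the 24 deep-layer genes was nevertheless higher in hippocampus. It was 893 to 959 CPM in prefrontal cortex and 1094 to 1162 CPM in the complete hippocampal libraries. Over the 18 deep-layer genes counted in all libraries the ranges overlapped, at 651 to 725 CPM and 676 to 747 CPM. Otof, the otoferlin gene, was at 39.1, 40.6, 37.7 and 42.9 CPM against 4.59, 6.44 and 7.14 CPM (-2.75 ± 0.10), and Stard8, a lipid transfer domain gene, differed by -2.61 ± 0.09. The 3 upper-layer genes higher in hippocampus were Mdga1, Rspo1 and Rgs8. Mdga1, an adhesion protein that limits synapse formation, was at 14.3, 20.6, 15.8 and 24.5 CPM against 140.0, 133, 103 and 128 CPM (2.76 ± 0.11), while Rspo1 (0.45 ± 0.12, not called without the male LP prefrontal library) and Rgs8 (0.35 ± 0.05) differed by far less. In the deep-layer list, the neurotensin receptor gene Ntsr1 of layer 6 (-1.84 ± 0.14), the growth factor gene Ccn2 of layer 6b (-1.85 ± 0.15) and Foxp2 (-1.66 ± 0.24) were lower. Hs3st4, an enzyme that modifies heparan sulfate (1.49 ± 0.05), Crym, a thyroid hormone binding protein (1.14 ± 0.05), and the repressor Bcl6 (1.28 ± 0.06) were higher, and Fezf2, the selector of subcerebral neurons, was slightly lower (-0.36 ± 0.06).

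Interneuron genes were called in both directions, more of them lower in hippocampus. The summed level of the 25 list members was 2389 to 2518 CPM in prefrontal cortex. In the complete hippocampal libraries it was 1973 to 1984 CPM. Gad1 and Gad2, which make GABA in all interneurons, differed by -0.10 ± 0.04 and 0.23 ± 0.05. Of 25 interneuron genes 16 were lower, 6 higher and 3 did not pass (median -0.36). The peptide Vip of disinhibitory interneurons was at 61.3, 56.5, 47.3 and 61.7 CPM in prefrontal cortex against 11.4, 14.3, 10.3 and 13.3 CPM in hippocampus (-2.20 ± 0.09). Somatostatin, Sst, was at 246, 319, 272 and 263 CPM against 121, 147, 130.1 and 136 CPM (-1.04 ± 0.06), and parvalbumin, Pvalb, differed by -0.51 ± 0.05. The genes higher in hippocampus included Kit, a receptor tyrosine kinase of neurogliaform and other interneurons (50.6, 49, 48.6 and 50.01 CPM against 120.0, 116 and 114 CPM, 1.24 ± 0.05). Adarb2, a marker of interneurons from the caudal ganglionic eminence, differed by 1.14 ± 0.07 and Ndnf, a neurogliaform marker, by 0.76 ± 0.10. Gad1 was not called with DESeq2 nor without each of 4 libraries in turn.

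**Figure D3:**
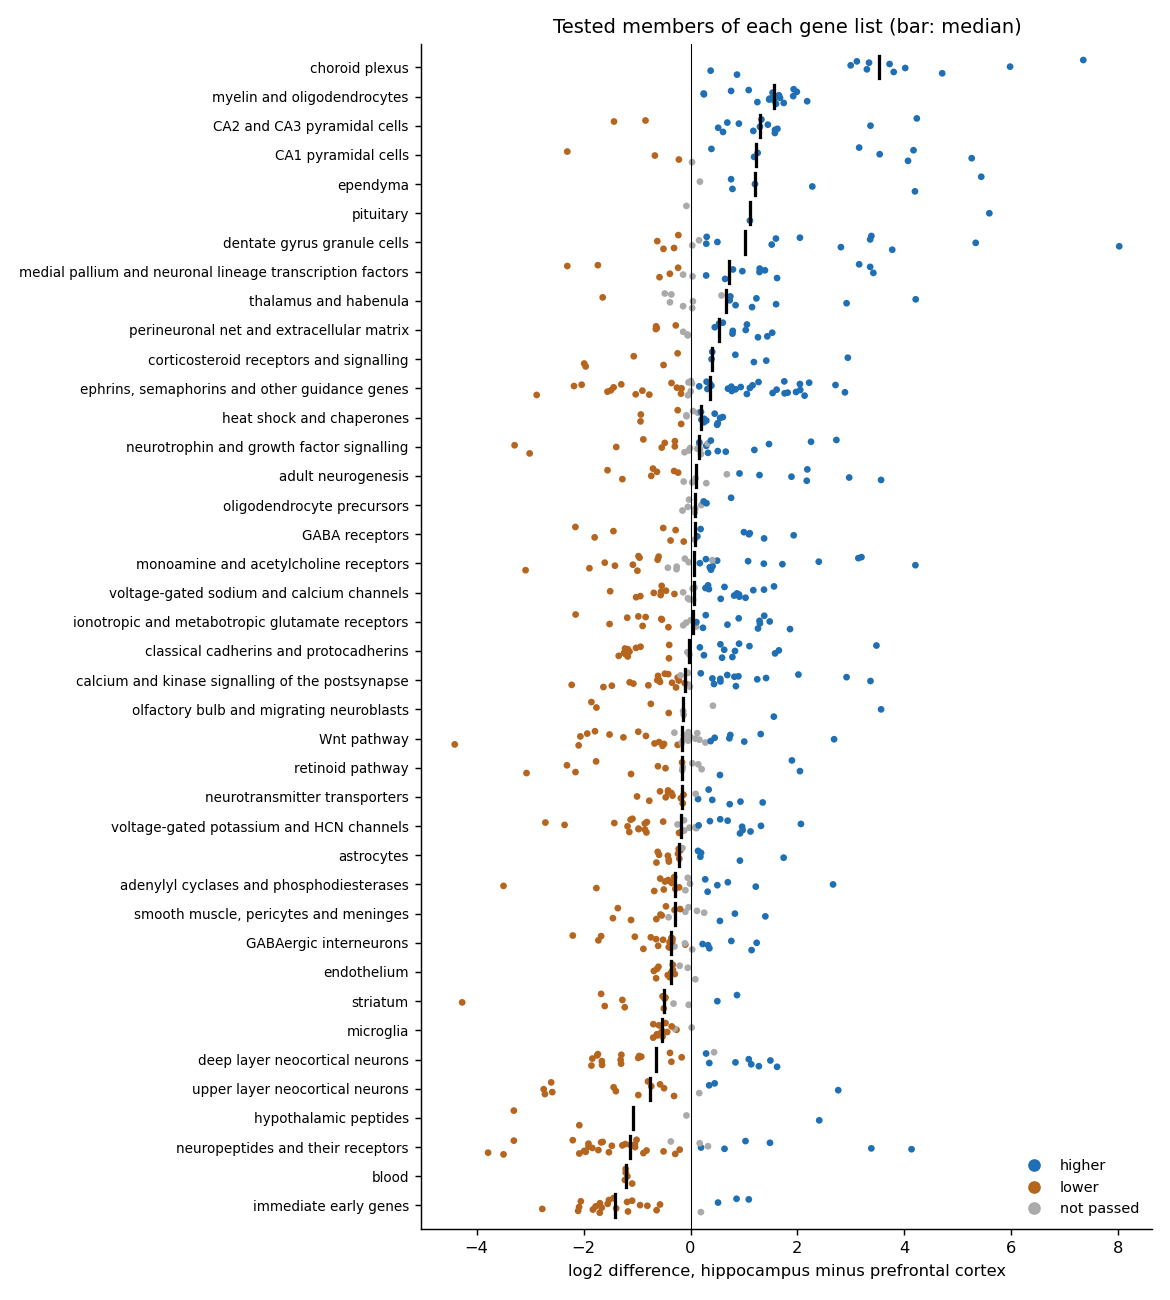
Log2 difference, hippocampus minus prefrontal cortex, of every tested member of the 40 gene lists, with 1 point per gene (blue higher, brown lower, grey not passed) and a bar at each list's median. Medians run from 3.53 for choroid plexus and 1.56 for myelin at the top to -1.42 for immediate early genes at the bottom.

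Glutamate receptor genes divided by subunit. Of 24 genes 11 were higher, 9 lower and 4 did not pass, with 6 at least 2-fold higher and 3 at least 2-fold lower (median 0.05). Gria1, the AMPA receptor subunit required for long-term potentiation in CA1, was at 307, 333, 313 and 314 CPM in prefrontal cortex against 1202, 1125, 1131 and 1143 CPM in hippocampus (1.86 ± 0.04, 3.63-fold; chromosome 11, 57011387 to 57330244). Gria2, the subunit that blocks calcium entry, differed by 1.26 ± 0.07, Gria3 by 0.23 ± 0.05 and Gria4, an interneuron-enriched subunit, by -0.41 ± 0.06. Per kilobase of annotated exon, Gria1 rose from 52.4 to 190 CPM and Gria2 from 17.1 to 40.9 CPM. On this scale Gria1 was the highest of the 4 AMPA subunit genes in both regions. Here and below, exon length merges all annotated transcripts (15548 bases for Gria2), so the order of genes depends on the annotation. The NMDA receptor genes Grin2a (1.48 ± 0.07) and Grin2b (1.29 ± 0.04) were higher, while the obligatory subunit gene Grin1 differed by 0.11 ± 0.04. Grin1 lost its call with DESeq2, on region alone and without each NP library in turn. Among metabotropic receptors, Grm5, which signals through calcium release, was at 109.9, 97.5, 115 and 111 CPM against 293, 258 and 270.5 CPM (1.38 ± 0.05). Some presynaptic inhibitory receptors went the opposite way, with Grm2 at 129, 127, 128 and 135 CPM against 52.6, 61.9 and 58.1 CPM (-1.18 ± 0.06) and Grm8 at -2.15 ± 0.12. The kainate receptor subunit gene Grik3 was lower too (-1.51 ± 0.06), while Grik4 was higher.

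GABA receptor genes showed the same kind of division. Of 15 genes 7 were higher, 7 lower and 1 did not pass. Gabra5, whose receptors carry tonic inhibition in hippocampal pyramidal cells, was at 50.1, 47.8, 51.2 and 47 CPM against 191, 184 and 181 CPM (1.93 ± 0.05, 3.81-fold; chromosome 7, 57407672 to 57510059). Gabra2 was at 64.4, 58.3, 71.6 and 63.9 CPM against 171, 155 and 160.3 CPM (1.38 ± 0.05), and the beta subunit genes Gabrb1 (1.09 ± 0.06) and Gabrb2 (1.11 ± 0.10) were higher. Gabra3 was at 150.5, 138, 150.4 and 142 CPM in prefrontal cortex against 41.5, 43.9 and 38.9 CPM in hippocampus (-1.79 ± 0.06). Gabrd, the delta subunit gene of extrasynaptic receptors, was at 67, 76.8, 74.9 and 75.6 CPM against 24.2, 26.6 and 30.9 CPM (-1.44 ± 0.06). Per kilobase of exon, Gabra3 (37 CPM) was above Gabra5 (16.5 CPM) in prefrontal cortex, and Gabra5 (62.3 CPM) above Gabra3 (10.6 CPM) in hippocampus.

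Receptors for monoamines and acetylcholine were called in both directions. Of 30 genes 14 were higher, 10 lower and 6 did not pass, with 7 at least 2-fold higher and 5 at least 2-fold lower. The serotonin receptor genes Htr4 (0.956, 1.48, 1.1 and 1.09 CPM against 10.3, 11.5, 9.79 and 9.67 CPM) and Htr5b (1.19, 0.296, 0.46 and 0.795 CPM against 6.69, 6.06, 7.11 and 5.4 CPM) were near silent in prefrontal cortex. Their differences were 3.14 ± 0.16 and 3.20 ± 0.24, and Htr1a, the main inhibitory serotonin receptor gene, differed by 1.08 ± 0.07. The dopamine receptor genes divided, with Drd5 higher (2.40 ± 0.17) and Drd1 lower (12.5, 12.7, 13.4 and 15.6 CPM against 4.51, 3.76, 5.94 and 3.57 CPM, -1.60 ± 0.14). Among receptors for noradrenaline, Adra1b was at 38.1, 40.3, 39.1 and 41.3 CPM in prefrontal cortex against 3.47, 4.06, 6.11 and 5.14 CPM in hippocampus (-3.09 ± 0.11), and Adrb1 differed by -1.89 ± 0.07. The nicotinic subunit gene Chrna7 was higher (1.37 ± 0.10), and the muscarinic receptor gene Chrm1 slightly so (0.36 ± 0.04). With Drd1, Adra1b and Adrb1, the at least 2-fold lower members were the muscarinic receptor gene Chrm4 and the nicotinic subunit gene Chrna4.

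Voltage-gated channel genes moved in both directions. Of 32 potassium and HCN channel genes 10 were higher and 16 lower, and of 28 sodium and calcium channel genes 13 were higher and 9 lower. Kcnd2, which carries the A-type current of pyramidal cell dendrites, was at 72.5, 62.3, 75.6 and 65.9 CPM against 178, 150.3 and 169 CPM (1.32 ± 0.05). The modifier subunit gene Kcnf1 was at 189.9, 219, 207 and 257 CPM against 36.6, 51.1, 36.1 and 46.7 CPM (-2.36 ± 0.06), and the EAG-type genes Kcnh4 (-2.72 ± 0.10) and Kcnh3 (-1.43 ± 0.04) were lower as well. Kcnh3 shares exonic bases with Mcrs1. Kcng2 (2.07 ± 0.11) and Kcna1 (1.12 ± 0.06) were among the higher ones. The sodium channel subunit gene Scn3b was at 146, 156, 155 and 159 CPM against 474, 426 and 453 CPM (1.56 ± 0.05). The AMPA receptor auxiliary subunits exchanged places, with Cacng8, the hippocampal type, higher (39.1, 44.1, 41.9 and 41.6 CPM against 108, 103 and 114 CPM, 1.37 ± 0.06) and Cacng3 lower (155, 173, 185 and 195 CPM against 59.6, 58.4 and 66.3 CPM, -1.50 ± 0.05).

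Neuropeptides and their receptors were mostly lower in hippocampus. Of 35 genes 26 were lower and 6 higher, with 21 at least 2-fold lower (median -1.13), against 29.6% and 5.16% of all tested genes lower and lower at least 2-fold. Cckbr, the main cholecystokinin receptor of the brain, was at 107, 121, 119 and 129 CPM in prefrontal cortex against 9.19, 9.35 and 7.23 CPM in hippocampus (-3.79 ± 0.08, 13.8-fold). Its ligand Cck was at 327, 341, 364 and 367 CPM against 186, 174 and 200.2 CPM (-0.88 ± 0.04). Adcyap1, which encodes the peptide PACAP, was at 26, 39.3, 33.5 and 39.8 CPM against 2.74, 3.83, 2.68 and 2.87 CPM (-3.50 ± 0.12). Ligand and receptor went opposite ways for neuropeptide Y, with Npy at 83.2, 107, 96.9 and 89.1 CPM against 25.1, 34.4 and 28.3 CPM (-1.72 ± 0.08) where Npy2r was 17.6-fold higher. The other genes higher in hippocampus were Nts (3.38 ± 0.26), Sstr4 (1.49 ± 0.10), Tacr3 (1.03 ± 0.33), Npy5r (0.64 ± 0.19) and Ntsr2 (0.20 ± 0.05), and Tacr3 and Npy5r lost their calls with DESeq2 and without single libraries.

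Genes of corticosteroid signalling were all called, in both directions. The mineralocorticoid receptor gene Nr3c2, the high-affinity receptor for corticosterone, was at 28.6, 30.3, 25.1 and 26.1 CPM against 217, 229.6 and 207 CPM (2.94 ± 0.05, 7.69-fold, adjusted p = 3.4e-19; chromosome 8, 76899442 to 77245012). The glucocorticoid receptor gene Nr3c1 was at 59.5, 46.7, 56.1 and 57.8 CPM against 80.1, 72.2, 67.9 and 67.7 CPM (0.39 ± 0.07). Per kilobase of exon, Nr3c2 was at 4.25 CPM and Nr3c1 at 7.16 CPM in prefrontal cortex, but at 33.6 and 9.37 CPM in hippocampus. Hsd11b1, which regenerates active corticosterone (1.42 ± 0.08), the receptor co-chaperone gene Fkbp5 (1.19 ± 0.07) and the induced kinase gene Sgk1 (0.84 ± 0.09) were higher. Crhr1, the receptor for corticotropin-releasing hormone, was at 47.2, 51.4, 55.5 and 56.9 CPM against 12.3, 14, 12.3 and 14.4 CPM (-1.99 ± 0.07), and its ligand Crh was lower as well (-1.96 ± 0.18). Per1, a clock gene that also responds to glucocorticoids, differed by -1.06 ± 0.05, and Crhbp and Tsc22d3 were the other two lower members, Tsc22d3 not on region alone.

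Secreted growth and patterning factors differed in single members. Of 26 neurotrophin and growth factor genes 10 were higher, 8 lower and 8 did not pass. Tgfb2 was at 15.1, 13.4, 14.2 and 12.1 CPM against 90.7, 91.2, 83.6 and 98.8 CPM (2.73 ± 0.08), and the neurotrophin gene Ntf3, known in granule cells, differed by 2.25 ± 0.21. Bmp3 was at 25.3, 23.9, 31.5 and 28.2 CPM in prefrontal cortex against 2.9, 3.76 and 2.96 CPM in hippocampus (-3.01 ± 0.12), and Igfbp6, which binds insulin-like growth factor II, at 60.4, 56.2, 61.9 and 69.2 CPM against 6.77, 5.06, 8.2 and 5.22 CPM. Bdnf did not pass (0.19 ± 0.11), with 29.2 to 64.7 CPM in prefrontal cortex and 45.1 to 53.7 CPM in hippocampus. Of 32 Wnt pathway genes 7 were higher, 14 lower and 11 did not pass. Dkkl1 (38.3, 34.1, 39.6 and 42.9 CPM against 2.1, 2.07 and 1.04 CPM) and the Wnt inhibitor gene Sfrp1 (-2.06 ± 0.10) were lower. The R-spondin receptor gene Lgr6 (4.7, 3.77, 4.41 and 2.68 CPM against 22.4, 30.6, 24.2 and 23.7 CPM, 2.69 ± 0.14) was higher. Of 16 retinoid genes 3 were higher (Cyp26b1, Stra6 and Aldh1a1) and 8 lower. Cyp26b1, which degrades retinoic acid, differed by 2.05 ± 0.11, and Aldh1a3, which makes it, by -3.07 ± 0.22.

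Guidance and adhesion genes held some of the larger groups at least 2-fold apart. Of 45 ephrin, semaphorin and other guidance genes 26 were higher and 14 lower, with 16 at least 2-fold higher and 8 at least 2-fold lower (median 0.36), against 5.67% and 5.16% of all tested genes. EphA receptors were among the higher ones: Epha6 was at 7.25, 7.18, 8.18 and 7.46 CPM against 61.7, 53.9, 51.1 and 55.2 CPM (2.89 ± 0.08), and Epha7 (1.97 ± 0.04) and Epha5 (1.82 ± 0.05) followed. Their ligand gene Efna5 went the opposite way, at 25.5, 26.7, 27.7 and 28.9 CPM in prefrontal cortex against 3.55, 4.37, 3.68 and 3.05 CPM in hippocampus (-2.88 ± 0.11). Sema3e, a repellent ligand, was at 14.4, 13, 17.7 and 13.7 CPM against 104, 86.6 and 85.8 CPM (2.71 ± 0.07), and the semaphorin co-receptor gene Nrp1 differed by 2.05 ± 0.07. Slit1, a midline repellent, was at 62.7, 80.1, 56.8 and 66.9 CPM against 318, 299.97, 305 and 315 CPM (2.22 ± 0.07). Ephb6, a receptor without kinase activity, was lower (-1.49 ± 0.05).

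Cadherins and protocadherins, which sort neurons by adhesion, were called in near equal numbers, with 12 of 25 higher and 11 lower. Pcdh20 was at 14.1, 11.7, 12 and 10.3 CPM against 133, 137, 128 and 141 CPM (3.48 ± 0.07), and Pcdh19 differed by 1.10 ± 0.05. Pcdh10 was at 243, 218, 253 and 234 CPM against 107, 99.99, 103 and 109 CPM (-1.18 ± 0.04), and Cdh13 differed by -1.18 ± 0.08. In the list of perineuronal nets and matrix 10 of 17 were higher and 4 (Lgals1, Reln, Ncan and Sparcl1) lower. Hapln4, a link protein of perineuronal nets (0.79 ± 0.05), and Acan, their core proteoglycan (1.26 ± 0.18), were higher, while Ncan (-0.63 ± 0.05) and Reln, the secreted layering signal (-0.64 ± 0.06), were lower.

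Genes of calcium and kinase signalling of the postsynapse were called in both directions. Of 35 genes 14 were higher, 17 lower and 4 did not pass. Camk2a, the abundant alpha subunit of the calcium and calmodulin-dependent kinase, was at 5265, 5428, 5102 and 5281 CPM against 5328, 5233, 5057 and 5264 CPM and did not pass (-0.01 ± 0.03). Its inhibitor gene Camk2n1 was at 3516, 3562, 3369.6 and 3357 CPM in prefrontal cortex against 737, 806, 697 and 718 CPM in hippocampus (-2.22 ± 0.04, 4.67-fold), and Camk2b differed by 0.85 ± 0.04. The calcineurin subunit gene Ppp3ca was at 966, 905, 949 and 918 CPM against 2345, 2128, 2229 and 2177 CPM (1.25 ± 0.03), and the kinase gene Prkca differed by 1.41 ± 0.06. The upstream kinase gene Camkk2 (-1.07 ± 0.04) and Camk1 (-1.63 ± 0.06) were lower. Among 21 genes of cyclic nucleotide signalling 6 were higher and 12 lower: the phosphodiesterase gene Pde11a, known for ventral CA1, differed by 2.67 ± 0.16, Adcy9 by 1.22 ± 0.06, Adcy2 by -0.68 ± 0.04 and Adcy7 by -1.76 ± 0.11. Transporters for transmitters were mostly lower by small amounts (11 of 18 lower, 6 higher), with the vesicular glutamate transporter gene Slc17a7 at -0.15 ± 0.04, not called without the male LP prefrontal or the female LP hippocampus library, and the synaptic zinc transporter gene Slc30a3 at 196, 202, 200.2 and 219 CPM in prefrontal cortex against 100.1, 107 and 101 CPM in hippocampus.

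Immediate early genes, which neurons transcribe within minutes of activity, were lower in hippocampus and varied between libraries. Of 24 genes 20 were lower, 3 higher and 1, Bdnf, did not pass, with 16 at least 2-fold lower (median -1.42). Egr2 was at 74.7, 105, 40.7 and 85.1 CPM against 7.42, 24.2, 3.68 and 11 CPM (-2.77 ± 0.16), and Fos at 201, 259.6, 71.4 and 139.8 CPM against 34.7, 77, 17.3 and 33.7 CPM (-2.09 ± 0.10). Arc, whose mRNA travels to active synapses, was at 1067, 1305, 444 and 1049 CPM against 298, 532, 143 and 268 CPM (-1.70 ± 0.11). In all 3 genes the male LP library was highest and the female NP library lowest in each region, and the lowest cortical value of Fos and Arc lay below the highest hippocampal one. Over the 18 members counted in all libraries, the summed level was 3898, 4606, 2239 and 4107 CPM in prefrontal cortex and 1473, 2245, 1054 and 1614 CPM in hippocampus. Fosb (-1.78 ± 0.09), Egr4 (-1.66 ± 0.08), Ier5 (-1.70 ± 0.06) and Junb (-1.19 ± 0.08) were lower, and Junb shares exonic bases with Prdx2. The 3 members higher in hippocampus were Nr4a2 (28.3, 72.7, 19 and 48.2 CPM against 68.3, 118, 61.4 and 95.8 CPM, 1.09 ± 0.11), Nr4a3 (0.86 ± 0.09) and Jun (0.51 ± 0.08). The time of day and handling before dissection are not given in the labels, and their part in the result was not tested.

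**Figure D4:**
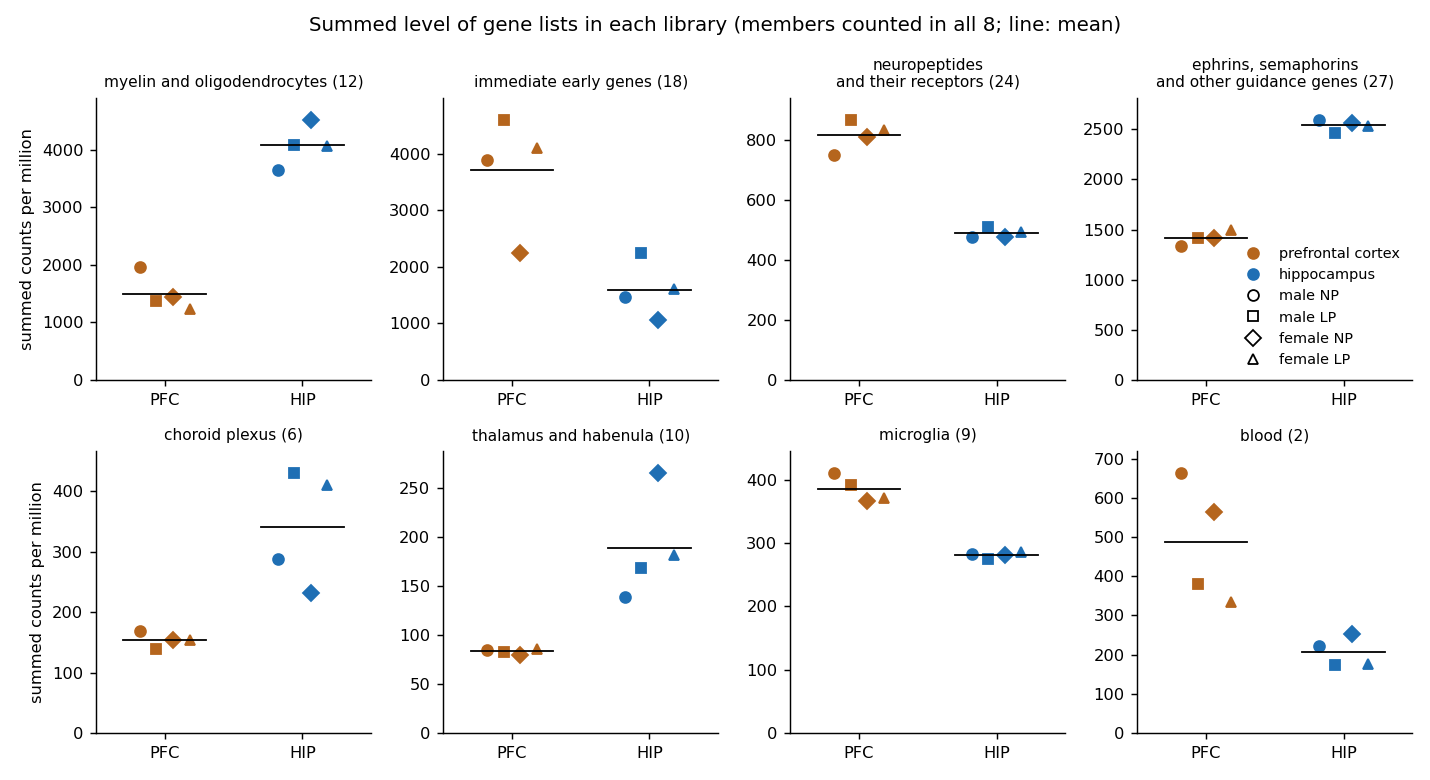
Summed normalized CPM of 8 gene lists in each library, over the members counted in all 8 libraries (their number in brackets), with a line at the mean of each region; axes start at 0 and symbols give sex and diet. Myelin, guidance, choroid plexus and thalamus lists are higher in every hippocampal library, neuropeptide, microglia and blood lists lower, and immediate early genes overlap by a small margin.

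Genes of myelin were higher in hippocampus without exception in the list. All 18 were called higher, 15 of them at least 2-fold (median 1.56). Mobp, a basic protein of compact myelin, was at 338, 200.2, 212 and 177 CPM against 788, 876 and 901 CPM (1.92 ± 0.12), and Mbp at 1200.4, 858, 884 and 759 CPM against 2353, 2724, 2958 and 2672 CPM (1.55 ± 0.10). The male NP library was the highest of the prefrontal cortex in both genes. The lineage factors moved far less, with Sox10 at 0.76 ± 0.08, Olig1 at 0.25 ± 0.07 and Olig2 at 0.25 ± 0.10, and Olig2 lost its call with DESeq2 and without each of 4 libraries. Of 9 genes of oligodendrocyte precursors 3 were higher and 6 did not pass, and the precursor receptor gene Pdgfra was at -0.03 ± 0.07.

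Other glial and vascular lists differed by smaller amounts. Of 16 astrocyte genes 5 were higher (Gfap, Aqp4, Ntsr2, Gja1 and Slc1a2) and 10 lower (median -0.22). Slc1a2 (0.14 ± 0.06, adjusted p = 0.047 in edgeR) was not called with other size factors, without the low-count filter, on region alone, or without any one of 5 libraries. Gfap, the filament protein of fibrous and hippocampal astrocytes, was at 177, 104, 117 and 132 CPM against 415, 428, 495 and 425 CPM (1.74 ± 0.11), and the water channel gene Aqp4 differed by 0.92 ± 0.08. The metabolic genes Glul (-0.59 ± 0.05) and Aldh1l1 (-0.64 ± 0.06) were lower. Of 14 microglial genes 12 were lower and none higher (median -0.53), and the summed level of 9 of them was 366 to 411 CPM in prefrontal cortex and 275 to 285 CPM in hippocampus. Csf1r, the receptor microglia need to survive, differed by -0.56 ± 0.05 with 114 to 129 CPM against 82.1 to 83.6 CPM, and its exons overlap those of Hmgxb3. Of 15 endothelial genes 12 were lower and 3 did not pass (median -0.37), with the glucose transporter gene Slc2a1 at -0.63 ± 0.05. Of 17 genes of smooth muscle, pericytes and meninges 9 were lower and 3 higher (Dcn, Lum and Acta2, the last not with all 10 libraries fitted). All 5 tested blood genes were lower (median -1.21), and the haemoglobin gene Hba-a1 was at 406, 231, 341 and 199 CPM against 132, 104, 149 and 105 CPM. Haemoglobin genes have near-identical copies, so the split between copies is uncertain, and in both regions the NP libraries were above the LP ones.

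Markers of neighbouring tissue were measured beside these results, because dissected tissue can carry it. All 12 tested choroid plexus genes were higher in hippocampus (median 3.53), with a summed level over 6 of them of 138 to 169 CPM in prefrontal cortex and 232 to 431 CPM in hippocampus. Ttr, the thyroxine carrier and the most abundant choroid plexus gene, was at 1.19, 0.666, 0.643 and 0.696 CPM against 100.3, 200.2, 38.6 and 179 CPM (7.35 ± 0.30). Within hippocampus it was lowest in the female NP and highest in the male LP library. Kl, the Klotho gene, which hippocampal neurons also express, was at 1.91, 2.15, 1.56 and 2.59 CPM against 33.2, 35.8 and 33.1 CPM, close together in hippocampus. The choroid plexus factor gene Otx2 was at 0 in 3 of 4 cortical libraries and at 1.37, 2.15, 2.17 and 2.35 CPM in hippocampus. Of 7 ependymal genes 6 were higher (Foxj1, 2.28 ± 0.18). Of 16 thalamic and habenular genes 8 were higher and 1 (Tac2) lower, and the kinase gene Prkcd was at 10.3, 8.58, 9.28 and 12 CPM against 58.9, 64.3, 112 and 73.3 CPM (2.92 ± 0.14). Tcf7l2, the factor that defines thalamic neurons, was at 7.01, 6.51, 6.8 and 7.36 CPM against 5.48, 10.1, 21.2 and 11 CPM, highest in the female NP hippocampus. Without that library its difference was 0.32 and not called, where all libraries gave 0.74, and DESeq2 did not call it either. The part of thalamic tissue in other results was not tested.

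Of 13 striatal genes 9 were lower in hippocampus and 2 (Pde10a and Syndig1l) higher (median -0.50), with summed levels of 389 to 428 CPM in prefrontal cortex and 285 to 309 CPM in hippocampus. The striatal marker Adora2a was at 2.19 to 3.74 CPM in prefrontal cortex and 0.871 to 1.85 CPM in hippocampus. Of 3 tested pituitary genes Gh and the secretory granule gene Chgb (1.11 ± 0.04) were higher and Pomc did not pass. Growth hormone was called higher in hippocampus (Gh, 5.59 ± 1.05, adjusted p = 0.00049), but at 429, 0.383, 0.167 and 5.05 CPM this rests on the male NP library. Without that library the difference was -0.04 and was not called, and without the male NP prefrontal library it was 1.94 and not called. Of 4 tested genes in the list of hypothalamic peptides, the enzyme gene Hdc was higher and the peptide genes Trh and Cartpt lower. Of 9 olfactory bulb genes Eomes and Cdhr1 were higher and Th, Sp8, Dlx2 and Meis2 lower. Dlx2 and Sp8 lost their calls with DESeq2, Dlx2 also without most single libraries, and Th without the female LP hippocampus library.

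Genes of adult neurogenesis, which continues in the dentate gyrus, gave a mixed list. Of 19 genes 7 were higher, 7 lower and 5 did not pass. The proliferation genes Top2a (0.398, 1.33, 0.276 and 0.298 CPM against 2.42, 3.14, 3.76 and 1.92 CPM, 2.18 ± 0.40) and Mki67 (1.89 ± 0.28) were higher, as were the intermediate progenitor factor gene Eomes (3.56 ± 0.54) and the neuroblast gene Igfbpl1 (2.97 ± 0.46). All 4 were at or below 7 CPM in every library. Dcx, which marks immature neurons and also some cortical cells, did not pass (-0.13 ± 0.10). Stmn1, a microtubule regulator used as an immature neuron marker, was at 444, 461, 444 and 450.2 CPM in prefrontal cortex against 146, 165, 152 and 149.7 CPM in hippocampus (-1.55 ± 0.04), and the tubulin gene Tubb3 differed by -0.70 ± 0.05. Chaperone genes were shifted little, with 10 of 18 higher, 4 (Dnajb1, Hspb1, Pdia6 and Calr) lower and none at least 2-fold. Fitted on region alone, Dnajb1, Hspb1 and Calr were not called. Dnajb1, the most changed of them, was at 89.1, 184, 73 and 119 CPM against 48.4, 104 and 59.2 CPM (-0.94 ± 0.07), and its male LP library was highest in each region, as for the immediate early genes.

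The region difference was compared between the sexes and between the diets. For sex 0 of 16215 genes were called (0%) by edgeR's quasi-likelihood test, with 862 at an unadjusted p under 0.05, and DESeq2 called 0 with 125. Leaving out the male NP prefrontal library called 2 genes, Ndst4 and Egr1, and leaving out the male LP prefrontal library (Mal) or the male LP hippocampus library (CT010467.1) called 1 each. For diet 1 gene was called (0.00617%), with 767 at an unadjusted p under 0.05. It was Gm5590, annotated as a transcribed processed pseudogene, at 0.637, 0.888, 0.735 and 1.09 CPM in prefrontal cortex and 8.95, 0.767 and 0.348 CPM in the 3 hippocampal libraries that count it (LP minus NP, -4.41 ± 0.67, adjusted p = 0.0208). This difference rests on the male NP hippocampus library, the one with 429 CPM of Gh, and DESeq2 did not call it. With 1 library for each region, sex and diet, and no replicate within a cell, calls of 0 and 1 do not show that the regional pattern is the same in both sexes or on both diets.

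Genes at least 2-fold higher in hippocampus were longer than the rest. Their median span in the annotation was 42.7 kb, against 21.2 kb for all tested genes and 20.5 kb for genes at least 2-fold lower. With genes split by span into 4 groups of like number, from the shortest to the longest, 3.76%, 3.96%, 5.12% and 9.78% of genes were at least 2-fold higher, and 5.74%, 4.7%, 4.38% and 5.79% at least 2-fold lower. Integrity of the RNA is not given in the labels, and its part in this result was not tested.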

How the data were processed

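RNA from dissected, flash-frozen tissue was made into TruSeq libraries from 1 µg of total RNA. The authors deposited a table of raw counts per gene for the whole series; the submitters' processing notes name CASAVA, FastQC 0.10.1, STAR 2.5.0a and the mm10 build, while the sources used here do not give the counting tool, its annotation or its strand setting. Gene names and coordinates came from GENCODE M21 (GRCm38), which matched 47310 of 47729 identifiers. Counts were tested with edgeR 4.0.16 in R 4.3.3 (quasi-likelihood test on TMM-normalized library sizes, genes passing filterByExpr at a minimum count of 10, terms for region, sex and diet). Of the tested genes 10543 were fitted on 8 libraries and 5672 on 7, without the incomplete library, and their p-values were adjusted together (Benjamini-Hochberg, 0.05). DESeq2 1.42.0 was an alternative, and the procedure was tested on simulated data. The labels carry no replicate numbers; a block of libraries of the same sex and diet was an alternative. Named genes were the 12 largest called differences in each direction with a mean of at least 10 CPM and no overlap between regions (predicted genes skipped), up to 4 members of each of 40 gene lists by smallest p, and 4 region markers; others were chosen after their values were seen. The comparison, members and lists were chosen with earlier results of these data known. A comparison of promoter properties between gene groups was void, since the RefSeq table held 70.4% of tested genes, under the required 80%. Some genes are not reported here.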

Additional observations from a re-analysis of the deposited data

Results flagged for a closer look

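In 26 of the 445 gene groups and 80 list groups of 4 libraries, 1 library lay far from the other 3, by Dixon's test of the gap over the range. Chance flags about 1 in 20 groups, so the number by itself carries no weight. In hippocampus, the male NP library was highest in Gh (428.8 CPM, group median 2.717), in the summed pituitary genes (1336 CPM, median 868.7), in Gabrb2 (70.86 CPM), in Wnt9a (12.33 CPM) and in Cabp7 (287 CPM, where the other 3 are near 284). The male LP hippocampus library was highest in Adcyap1 (3.834 CPM) and in the summed genes of adult neurogenesis (299.7 CPM). The female NP hippocampus library was highest in Gfap (495 CPM), and the female LP one lowest in Lamp5 (33.7 CPM).

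In prefrontal cortex, the male NP library was highest in Ttr (1.195 CPM), Dock10 (12.98 CPM), the myelin lipid enzyme gene Fa2h (22.3 CPM) and Sgk1 (99.4 CPM). The same library was lowest in Grik3 (117.6 CPM), Slc17a7 (1775 CPM), the summed CA1 genes (813.7 CPM) and the summed Wnt pathway genes (316 CPM). The male LP prefrontal library was highest in Ndst4 (7.4 CPM, median 0.6005), Top2a (1.332 CPM) and Otx2 (0.074 CPM, the others at 0), and lowest in Aldh1l1 (58.83 CPM) and Kcng2 (3.552 CPM). The female NP library was highest in Tmem212 (0.1838 CPM, the others at 0). The female LP library was highest in Nrp1 (33.31 CPM) and in Tsc22d3 (142.9 CPM), and lowest in Acta2 (4.077 CPM).

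The region difference of Gm5590 differed between the diets by -4.41 on the log2 scale (LP minus NP), with 8.95 CPM in the male NP hippocampus library alone.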

How the results depend on the processing

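Of the 275 genes chosen by the rule or added 269 were called. Of these 248 kept their call in every one of the 16 alternatives other than leaving the zeros of the incomplete library in place, and 156 in all 16. Most were chosen by their differences or p-values in these data, so this share does not describe all genes. Over all tested genes, DESeq2 shared 7450 of the 9587 calls, and the fit without the male LP prefrontal library shared 8256. Over the fits without 1 library each, 4302 to 4673 genes were higher and 4203 to 4705 lower, with 940 to 1000 and 845 to 903 at least 2-fold. A replicate block pairing libraries of the same sex and diet, which share only these labels, gave 4748 higher and 4741 lower, with 9370 calls shared, and it moved no count of calls by region by over 1.5 times. DESeq2 gave 3775 and 3675. With the deposited zeros kept, 2589 genes were higher, 2522 lower and 575 at least 2-fold higher, and Ptprz1 (-0.25), Cryab (-0.23) and Gria3 (-0.47) turned negative, since absent values then count as 0. Without 1 library each, Gh ranged from -0.0418 (without the male NP hippocampus) to 7.17. For the region difference between sexes, 0 to 2 genes were called without 1 library each. For diet, relative log expression size factors called 10, the earlier quasi-likelihood method 2, and DESeq2, no low-count filter and the replicate block 0 each, and leaving out 1 library called 0 to 5, the 5 without the female NP hippocampus. The cause of these changes was not tested. Region alone, all 10 libraries and kept zeros were not run for sex and diet. Depth limited genes under about 1 CPM, where a few counts set the level.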
